A study of Mus musculus with 6 samples.

Results

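The set examined here holds 10 genes whose proteins release calcium from the sarcoplasmic reticulum (SR) of muscle cells, take it up again or hold it there. A probe set was included when its gene symbol equalled Ryr2, Atp2a2, Pln, Sln, Casq2, Casq1, Trdn, Jph2, Hrc or Asph. That gave 30 of the 45037 probe sets tested on whole-genome Affymetrix mouse arrays. Expression was measured on 3 arrays of CPC, mouse heart progenitor cells grown from bi-transgenic cardiomyocytes that had dedifferentiated and divided in prolonged culture, and on 3 arrays of Ctl, freshly isolated cardiomyocytes of adult bi-transgenic mice. Both groups therefore carried the transgenes. The labels do not name the transgenes. The study describes a Cre recombinase inducible by tamoxifen under the αMHC (Myh6) promoter and a fluorescent reporter. In that design the reporter traces only cells that had used this promoter at induction. The array values do not show whether the CPC were chosen by the reporter. The comparison asks how the cultured descendants differ from adult cardiomyocytes.

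In a heart muscle cell, calcium entering through the voltage-gated channels of the cell membrane opens the ryanodine receptors of the SR, and the calcium they release starts contraction. The pump SERCA2 then returns calcium to the SR, under the restraint of the small membrane proteins phospholamban and sarcolipin. Calsequestrin holds calcium in the lumen beside the release channel, with triadin and junctin as anchors, and junctophilin keeps the SR close to the cell membrane.

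Array medians lay between 7.32 and 7.47 on the log2 scale of the RMA intensities, and array maxima between 14.34 and 14.60. Array lower quartiles lay between 6.33 and 6.55, and 6.55 was taken as the background level. Where any array of the lower group did not exceed it, such arrays were raised to 6.55 for the fold, which is written with "at least". The log2 differences are those of the measured means, and for such probe sets they are not bounds. No detection calls were at hand, so a level above 6.55 is not by itself evidence of expression. The other folds may therefore also be bounds. Pairs of arrays correlated at 0.792 to 0.858 within CPC, at 0.933 to 0.971 within Ctl, and at 0.684 to 0.809 between the groups. The labels name no animal or culture for an array and speak of single captured cells without a number per array. The p-values thus reflect the spread among 6 arrays alone, and that spread may be technical. Fewer cells with a transcript and less RNA of it per cell cannot be told apart.

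Levels of 8 of the 10 genes were lower in CPC when each gene was read from its brightest probe set, the one with the highest mean over the 6 arrays, and none was higher. Among all genes read in this way, 4.47% were lower and 1.15% were higher (limma, p adjusted by Benjamini-Hochberg over all probe sets and under 0.05). Sln and Casq1 did not pass. The 8 genes became 5 with no moderation of the variance, with a fold limit of 2 and at an adjusted p under 0.01, settings at which 1.46%, 1.66% and 2.08% of all genes were lower. By probe set, 23 of 30 were lower and 0 were higher, against 4.38% lower and 1.06% higher among all probe sets. At an unadjusted p under 0.05 the members held 25 lower and 0 higher, against 10.7% lower and 9.69% higher among all probe sets, and with no moderation they held 17 lower, against 1.40% of all. Every CPC array lay below every Ctl array for 25 of the 30 probe sets, where this held for 11.8% of all probe sets. The reverse held for 1 member probe set, against 19.7% of all. For genes read from the brightest probe set, all CPC arrays lay below in 8 of the 10 members (11.0% of all genes) and above in 1, Sln (21.9% of all genes). The median difference was -4.16 over the member probe sets and 0.15 over all probe sets. All probe sets of Ryr2, Pln, Casq2, Trdn and Hrc were lower, which makes 5 genes, of which Casq2 and Hrc have 1 probe set each.

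**Figure D1:**
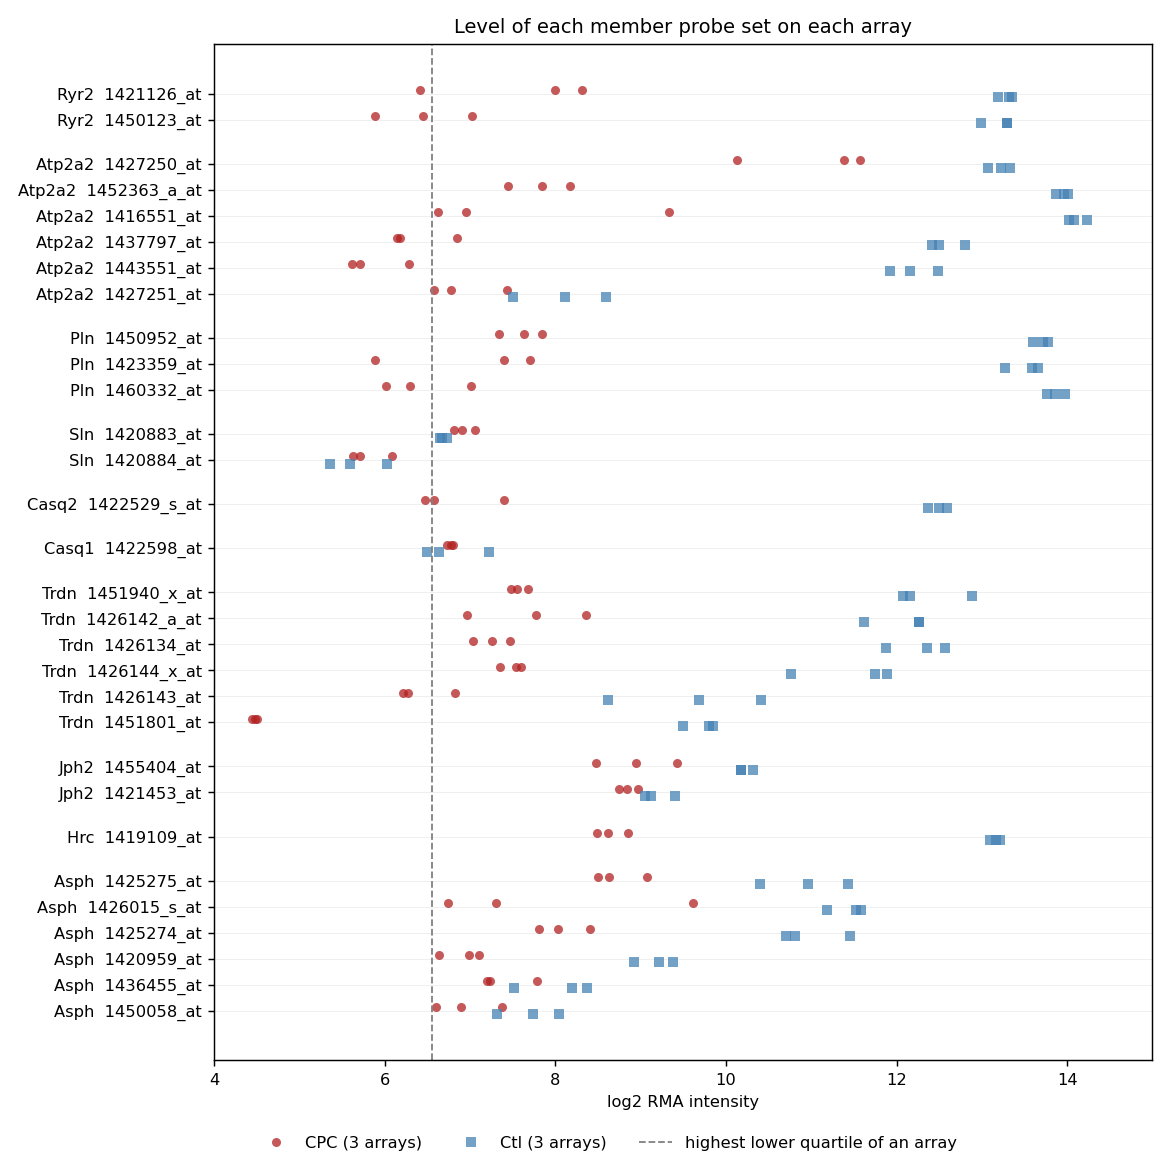
Log2 RMA intensity (x axis) of each of the 30 member probe sets (rows) on the 3 CPC arrays (circles) and the 3 Ctl arrays (squares); the dashed line is the background level of 6.55. For 25 probe sets all CPC circles lie left of all Ctl squares, and both Sln probe sets and Casq1 lie near or below the dashed line in both groups.

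RefSeq promoter windows of 250 bases before the gene start were at hand for 6 of the 10 genes (Ryr2, Pln, Casq2, Casq1, Jph2 and Hrc). They were searched on both strands for the TATA box (TATAAA), the MCAT element (CATTCC), the GATA site (AGATAA), the E-box (CAGCTG), the CArG box and the MEF2 site. Of all 32851 windows, the TATA box was held by 12.4%, the MCAT element by 12.6%, the GATA site by 9.99%, the E-box by 13.0%, the CArG box by 1.47% and the MEF2 site by 2.92%. The windows of Pln and Casq2, which fell, and of Casq1, which did not pass, are shown here to set both calsequestrin genes beside each other, with matches in capitals and the build GRCm38.p6.
Pln promoter, chr10:53337436-53337685, plus strand: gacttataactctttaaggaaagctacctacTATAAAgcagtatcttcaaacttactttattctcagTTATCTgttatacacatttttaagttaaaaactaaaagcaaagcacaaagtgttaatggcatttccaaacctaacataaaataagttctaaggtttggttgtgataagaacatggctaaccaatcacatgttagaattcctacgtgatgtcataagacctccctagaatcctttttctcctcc
Casq2 promoter, chr3:102086165-102086414, plus strand: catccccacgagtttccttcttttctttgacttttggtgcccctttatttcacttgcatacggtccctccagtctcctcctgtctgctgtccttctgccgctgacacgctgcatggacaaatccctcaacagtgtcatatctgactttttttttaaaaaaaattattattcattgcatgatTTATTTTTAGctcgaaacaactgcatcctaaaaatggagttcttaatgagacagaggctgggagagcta
Casq1 promoter, chr1:172219896-172220145, minus strand: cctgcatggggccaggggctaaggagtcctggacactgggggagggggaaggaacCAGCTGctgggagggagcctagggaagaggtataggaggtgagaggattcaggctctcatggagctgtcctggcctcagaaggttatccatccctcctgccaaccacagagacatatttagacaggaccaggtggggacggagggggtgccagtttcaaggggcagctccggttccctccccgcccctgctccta
In Pln the capitals mark the TATAAA letters 219 to 214 bases before the start. They also mark the GATA site of the other strand, 183 to 178 bases before it. In Casq2 they mark the MEF2 site 69 to 60 bases before the start, and in Casq1 the E-box 195 to 190 bases before it. The E-box was also present in the windows of Hrc and Jph2, and the window of Ryr2 held none of the 6 motifs. No matches overlapped each other. A match is a description of letters and not of a bound site.

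Ryr2, which encodes the calcium release channel of the heart SR, was at least 50.9-fold lower in CPC by its brightest probe set. This probe set (1421126_at) read 6.41, 8.00 and 8.31 on the CPC arrays, against 13.32, 13.19 and 13.35 on the Ctl arrays. The groups were far apart, and CPC 1, at background, lay below the other CPC arrays. The means were 7.57 ± 1.02 in CPC and 13.29 ± 0.084 in Ctl (SD, n = 3 each), a difference of -5.72 (SE 0.49, 95% interval -6.92 to -4.52, limma adjusted p = 0.0021). The second probe set (1450123_at) read 5.88, 6.45 and 7.02 in CPC and 13.29, 12.99 and 13.29 in Ctl, at least 89.4-fold lower (difference -6.74, SE 0.31, adjusted p = 0.000257). Both calls held under all alternatives that were run.

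Atp2a2 encodes SERCA2, the calcium pump that refills the SR, and occurs in a muscle isoform and in one found in the endoplasmic reticulum (ER) of most cells. Of its 6 probe sets 5 were lower in CPC, but by unequal amounts, and the files name the same transcripts for all 6 without stating which isoform a probe set reads. The brightest (1427250_at) read 11.57, 11.39 and 10.13 on the CPC arrays, against 13.23, 13.07 and 13.33 on the Ctl arrays. Although 4.54-fold lower, CPC remained well above background there, with CPC 3 below the other CPC arrays. The difference was -2.18 (SE 0.39, 95% interval -3.14 to -1.22, adjusted p = 0.0311). This call was lost when Ctl 1 (adjusted p = 0.121), Ctl 2 (0.0817) or Ctl 3 (0.131) was left out, with an intensity trend (0.0609) and with no moderation (0.146). Over all alternatives its adjusted p ran between 0.000972 and 0.146, and its difference between -2.45 and -1.73.

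The next brightest probe set of Atp2a2 (1452363_a_at) had 8.17, 7.84 and 7.44 in CPC and 13.87, 13.96 and 14.01 in Ctl. It was 70.1-fold lower, with a difference of -6.13 (SE 0.22, 95% interval -6.67 to -5.60, adjusted p = 0.000149), an interval that shares no value with that of 1427250_at. The probe set 1416551_at read 6.95, 9.34 and 6.62 in CPC, where CPC 2 stood apart, and 14.02, 14.08 and 14.23 in Ctl, close to the array maxima. It was 89.0-fold lower (difference -6.48, SE 0.70, adjusted p = 0.0050). Without CPC 2 its difference was -7.33, and with no moderation it did not pass (adjusted p = 0.0671). The sets 1437797_at (difference -6.18, SE 0.25, at least 60.7-fold) and 1443551_at (difference -6.32, SE 0.25, at least 49.7-fold) were at or near background in CPC, with adjusted p of 0.000208 and 0.000210. The dimmest set (1427251_at) read 6.57, 6.77 and 7.43 in CPC and 8.59, 7.51 and 8.11 in Ctl, and did not pass (difference -1.15, SE 0.35, adjusted p = 0.150).

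Pln encodes phospholamban, which slows SERCA2 until it is phosphorylated, and its 3 probe sets were lower in CPC by some of the largest amounts in the set. The brightest (1450952_at) read 7.34, 7.64 and 7.84 on the CPC arrays, against 13.78, 13.60 and 13.72 on the Ctl arrays. The arrays of each group lay close together, at 7.61 ± 0.25 in CPC and 13.70 ± 0.093 in Ctl (SD, n = 3 each). It was 68.2-fold lower (difference -6.09, SE 0.18, adjusted p = 0.000133). The probe set 1423359_at read 5.89, 7.40 and 7.71 in CPC and 13.27, 13.58 and 13.66 in Ctl, at least 77.9-fold lower (difference -6.51, SE 0.48, adjusted p = 0.0012). The probe set 1460332_at read 6.01, 6.30 and 7.01 in CPC and 13.76, 13.85 and 13.97 in Ctl. It had the most negative difference of the 30 (-7.42, SE 0.28, 95% interval -8.10 to -6.75, at least 143-fold, adjusted p = 0.000172).

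Sln encodes sarcolipin, another SERCA inhibitor, which in the mouse heart is known from the atria. It was near background in both groups. Its brighter probe set (1420883_at) read 6.81, 7.05 and 6.90 on the CPC arrays, against 6.73, 6.67 and 6.65 on the Ctl arrays. The CPC arrays lay above the Ctl arrays by less than the fit could separate (difference 0.24, SE 0.15, 95% interval -0.12 to 0.60, adjusted p = 0.388). With a weight per array this probe set passed as higher (adjusted p = 0.0324). Its adjusted p over all alternatives ran between 0.0324 and 0.644. The other probe set (1420884_at) lay at or under 6.55 on all 6 arrays.

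Casq2, the calsequestrin of heart muscle, was at least 50.2-fold lower in CPC. Its only probe set (1422529_s_at), of a kind that can match several transcripts, read 6.57, 7.39 and 6.47 in CPC and 12.59, 12.37 and 12.50 in Ctl. The groups were at 6.81 ± 0.51 in CPC and 12.49 ± 0.11 in Ctl (SD, n = 3 each; difference -5.68, SE 0.28, adjusted p = 0.000304). Casq1, the calsequestrin best known from fast skeletal muscle, showed no difference that the arrays could resolve. It read 6.78, 6.73 and 6.79 in CPC and 6.49, 6.63 and 7.22 in Ctl (1422598_at; difference -0.010, SE 0.22, 95% interval -0.56 to 0.54, adjusted p = 0.982). The groups overlapped, and these levels were close to background. Hrc encodes a histidine-rich protein that binds calcium in the SR lumen. Its probe set (1419109_at) read 8.62, 8.85 and 8.49 in CPC and 13.17, 13.21 and 13.10 in Ctl. It was 22.7-fold lower (difference -4.50, SE 0.16, adjusted p = 0.000149). All 3 CPC arrays remained above the background level, which does not by itself show that the transcript was present.

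Trdn encodes triadin, which ties calsequestrin to the ryanodine receptor, and all 6 of its probe sets were lower in CPC. The brightest (1451940_x_at) read 7.55, 7.48 and 7.68 in CPC and 12.16, 12.88 and 12.07 in Ctl, 27.9-fold lower (difference -4.80, SE 0.25, adjusted p = 0.000388). Next in brightness, 1426142_a_at read 7.77, 6.96 and 8.36 in CPC and 12.26, 12.27 and 11.62 in Ctl (difference -4.35, adjusted p = 0.0026). The probe set 1426134_at read 7.04, 7.25 and 7.47 in CPC and 11.88, 12.56 and 12.36 in Ctl (difference -5.01, adjusted p = 0.000272). These and 1426144_x_at (difference -3.97, adjusted p = 0.0016) gave folds between 15.7 and 32.3. On 1451801_at the CPC arrays, at 4.44, 4.50 and 4.47, were the dimmest of the set, against 9.81, 9.49 and 9.84 in Ctl, so that only a fold of at least 8.94 can be given (difference -5.24, SE 0.16, adjusted p = 0.000133). The smallest change was that of 1426143_at, with 6.21, 6.83 and 6.27 in CPC and 9.68, 8.62 and 10.41 in Ctl (difference -3.13, at least 7.59-fold, adjusted p = 0.0155). It did not pass without CPC 3 (adjusted p = 0.0510), without Ctl 1 (0.0724) or with no moderation (0.109).

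Asph encodes junctin, an anchor related in function to triadin, and also the enzyme aspartate beta-hydroxylase. Of its 6 probe sets 4 were lower in CPC. The brightest (1425275_at) read 8.62, 8.50 and 9.08 in CPC and 10.40, 10.96 and 11.44 in Ctl, 4.59-fold lower (difference -2.20, SE 0.31, adjusted p = 0.0129). With no moderation it did not pass (adjusted p = 0.0890). Both 1425274_at (8.40, 7.80 and 8.03 in CPC, against 10.81, 11.45 and 10.70 in Ctl, difference -2.91, adjusted p = 0.0028) and 1420959_at (6.63, 6.98 and 7.10 in CPC, against 9.21, 9.38 and 8.92 in Ctl, difference -2.26, adjusted p = 0.0026) passed under all alternatives that were run. The probe set 1426015_s_at was 11.7-fold lower with wide spread in CPC, at 9.61, 7.30 and 6.74, against 11.18, 11.53 and 11.58 in Ctl (difference -3.55, SE 0.73, adjusted p = 0.0482). Its call was lost under 11 of 16 alternatives: without CPC 2 (adjusted p = 0.114), CPC 3 (0.0910), Ctl 1 (0.145), Ctl 2 (0.128) or Ctl 3 (0.177), after either rescaling, and with 4 other settings. Its difference ran between -4.41 and -2.98 over the alternatives. The remaining sets, 1436455_at (difference -0.62, adjusted p = 0.288) and 1450058_at (difference -0.74, adjusted p = 0.222), overlapped between groups and did not pass.

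Jph2 encodes junctophilin 2, which bridges the SR and the transverse tubules, and it showed the least change among the genes that passed. Its brighter probe set by mean level (1455404_at) read 8.94, 8.48 and 9.42 in CPC and 10.18, 10.18 and 10.32 in Ctl. It was 2.42-fold lower (difference -1.28, SE 0.26, 95% interval -1.91 to -0.64, adjusted p = 0.0475). This call was lost under 10 of 16 alternatives: without CPC 1 (adjusted p = 0.0875), CPC 2 (0.0806), Ctl 1 (0.161), Ctl 2 (0.121) or Ctl 3 (0.182), and among others after repeated quantile normalization (0.267). The second probe set (1421453_at) read 8.75, 8.84 and 8.96 in CPC and 9.05, 9.12 and 9.41 in Ctl. The arrays did not overlap, but the difference of -0.34 did not pass (SE 0.17, 95% interval -0.75 to 0.065, adjusted p = 0.303). Over all alternatives the difference of 1455404_at ran between -1.67 and -0.91. Over the mean of both probe sets the difference was -0.81 (adjusted p = 0.0541).

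**Figure D2:**
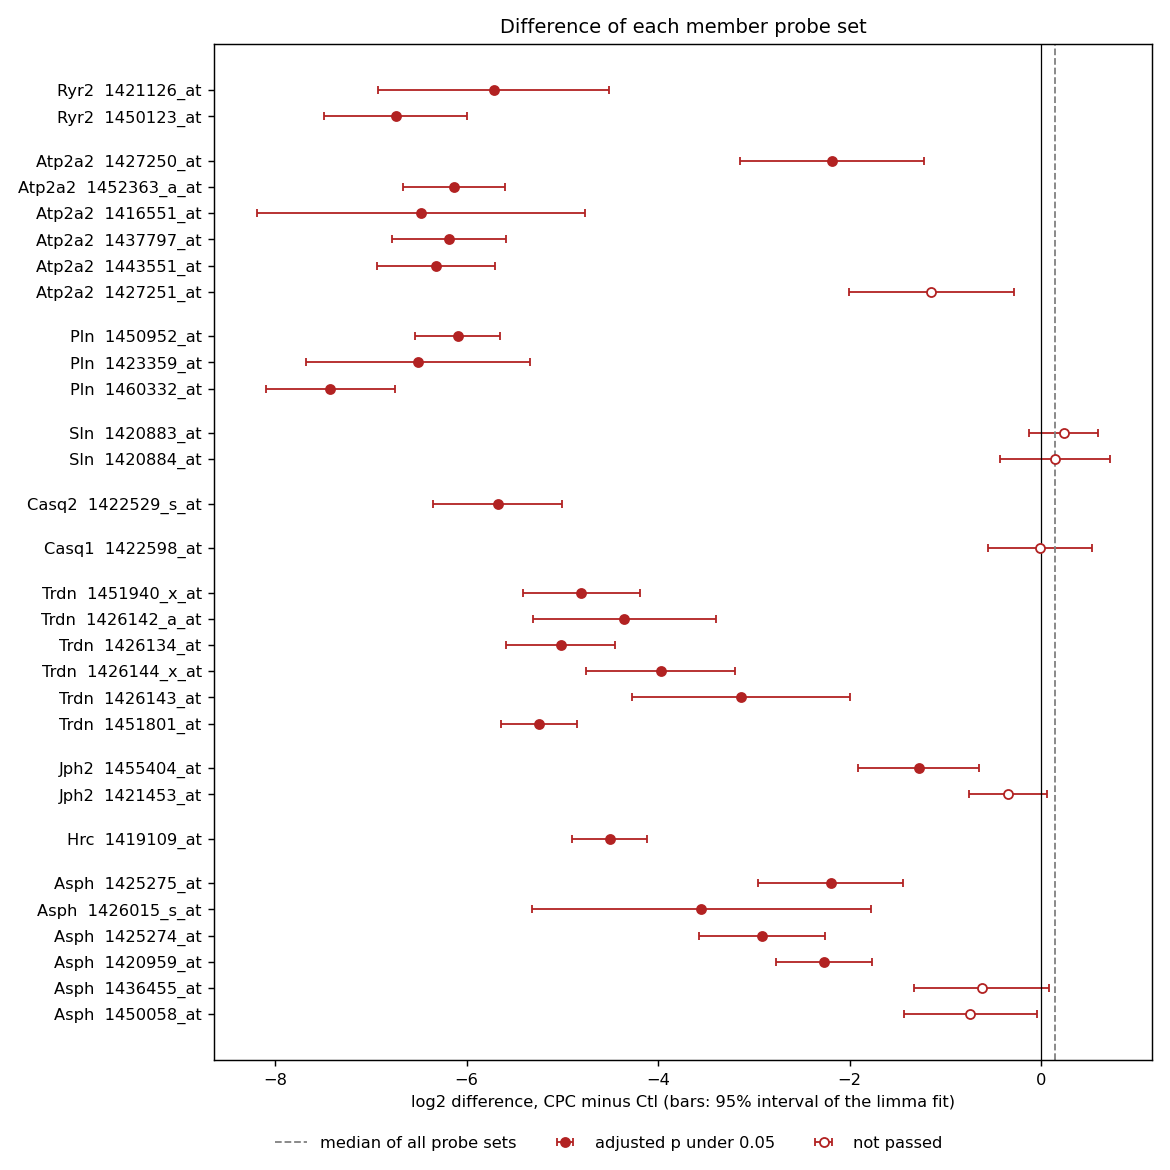
Log2 difference, CPC minus Ctl (x axis), of each member probe set (rows) with its 95% interval from the limma fit; filled points passed, open points did not, and the dashed line is the median of all probe sets, 0.15. All filled points lie below 0, from -7.42 for a Pln probe set to -1.28 for Jph2, and the 6 Atp2a2 probe sets spread between -6.48 and -1.15.

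The CPC arrays varied more than the Ctl arrays. The median SD of a member probe set was 0.352 in CPC and 0.211 in Ctl, beside 0.309 and 0.193 over all probe sets. The CPC SD exceeded the Ctl SD for 18 of 30 member probe sets and for 70.9% of all. The widest CPC spreads among the members were those of Asph 1426015_s_at, Atp2a2 1416551_at and Ryr2 1421126_at, each with 1 array away from the others.

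Whether the genes moved by unequal amounts was read from log2 ratios of their brightest probe sets within each array. The level of such a ratio depends on the probes, so only its difference between groups was compared. The groups were apart for 7 of 9 ratios, each at the smallest p that 3 against 3 arrays allow (exact two-sided permutation test, p = 0.1, adjusted over the 9 ratios p = 0.129), so no ratio could pass. Pln over Atp2a2 was -4.23, -3.75 and -2.29 in CPC and 0.55, 0.52 and 0.39 in Ctl, a difference of -3.91. Ryr2 over Atp2a2 differed by -3.54 in the same direction. Both rest on the Atp2a2 probe set with the smallest difference among those that passed: over the next brightest one, an alternative added after the values were seen, the differences were 0.040 and 0.41 with overlapping groups. Over the mean of all probe sets of each gene they were -1.93 and -1.49, without overlap.

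Of the ratios over Ryr2, those of Jph2 and Asph differed by the largest amounts. Jph2 over Ryr2 averaged 1.38 ± 1.05 in CPC and -3.06 ± 0.071 in Ctl (SD, n = 3 each; difference 4.44), and Asph over Ryr2 differed by 3.52. Hrc over Ryr2 differed by 1.21, again without overlap, but by only 0.65 without CPC 1. Casq2 over Ryr2 differed by less than the spread of the arrays (difference 0.041, exact permutation p = 0.9), with -0.42 without CPC 1 and 0.58 without CPC 3. Ryr2 was at background on CPC 1 and Casq2 on CPC 3, so this small difference does not show that both fell equally. The sizes of the other ratios over Ryr2 are also limited by the background level of Ryr2 on CPC 1. Trdn over Ryr2 overlapped between groups (difference 0.91, exact permutation p = 0.3, adjusted 0.338), with 0.34 without CPC 1, though over the mean of each gene's probe sets it differed by 1.81 without overlap. The groups were also apart for Casq1 over Casq2 and for Sln over Atp2a2. Casq1 and Sln lay near background in both groups, so these ratios restate the differences of Casq2 and Atp2a2 and are given no value of their own here.

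**Figure D3:**
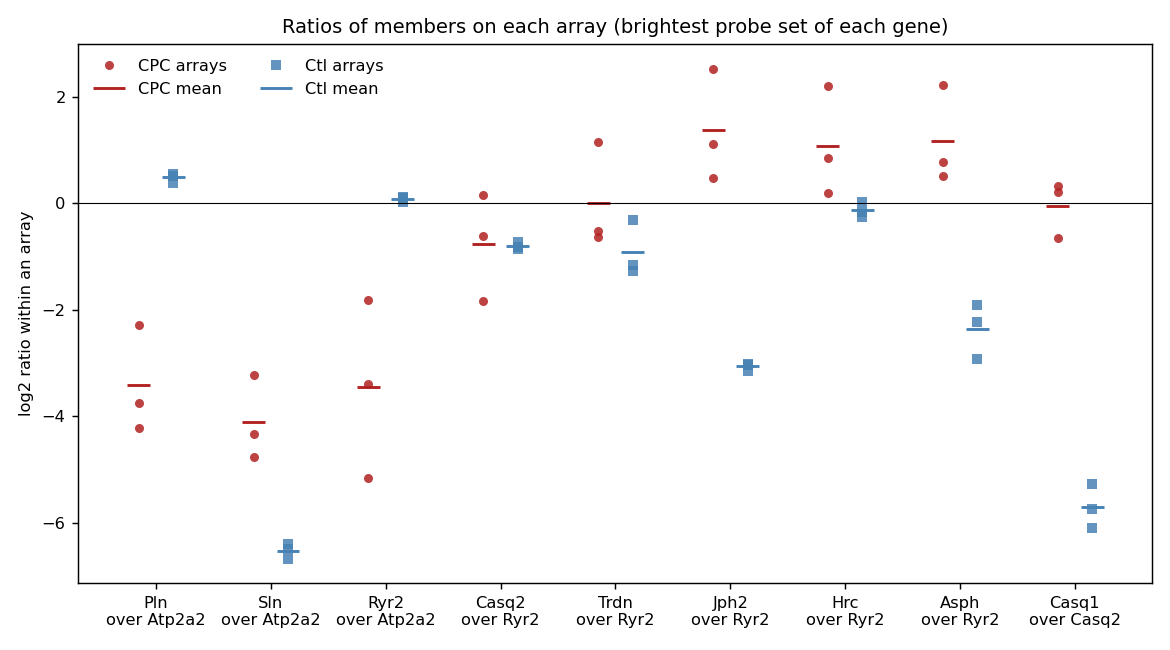
Log2 ratio of the brightest probe sets of 2 genes within an array (y axis) for 9 ratios on the 3 CPC arrays (circles, left of each pair) and the 3 Ctl arrays (squares); horizontal bars are group means. The groups are apart for 7 ratios and overlap for Casq2 over Ryr2 and Trdn over Ryr2, and the 3 ratios over Atp2a2 use its brightest probe set, which fell by 2.18.

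Further genes of the SR and of the dyad, the place where SR and cell membrane meet, numbered 24 in a list of their own. By the brightest probe set 7 fell and 0 rose (limma), against 4.47% lower and 1.15% higher among all genes. At an unadjusted p under 0.05 (limma) 7 were lower and 3 higher, against 10.7% lower and 9.69% higher among all probe sets. With no moderation 2 were lower and 0 higher, against 1.46% lower among all genes. The median difference of the list was 0.064, against 0.19 for all genes and -3.35 for the 10 members. Probe sets other than the brightest passed as lower for Camk2d (2 of 7) and Itpr2 (1 of 6), and as higher for Hax1 (1 of 2). Srl (sarcalumenin, a calcium-binding protein of the SR lumen) was 20.3-fold lower, at 8.05 ± 0.23 in CPC and 12.39 ± 0.30 in Ctl (SD, n = 3 each; difference -4.34, SE 0.22, adjusted p = 0.000371). Cacna1c, the pore of the voltage-gated calcium channel that triggers release, was 16.5-fold lower, at 7.92 ± 0.30 in CPC and 11.96 ± 0.21 in Ctl (difference -4.04, adjusted p = 0.000418). S100a1, a calcium-binding protein that acts on the ryanodine receptor and SERCA2, was 13.7-fold lower (difference -3.77, adjusted p = 0.0056).

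Slc8a1, the sodium-calcium exchanger of the cell membrane, was at least 7.04-fold lower by its brightest probe set (difference -2.84, adjusted p = 0.0135), the only one of its 4 probe sets that passed. It did not pass without Ctl 3 (adjusted p = 0.0640). Ppp1r3a, a targeting subunit of protein phosphatase 1, was at least 4.93-fold lower (difference -2.42, adjusted p = 0.0053). Jph1, the junctophilin of skeletal muscle, was at least 3.61-fold lower by its brightest probe set (difference -1.89, adjusted p = 0.0118; without Ctl 3, adjusted p = 0.0618), while its other probe set, at 0.21, did not pass. Itpr1, an inositol trisphosphate receptor and so the other kind of calcium release channel, was 2.80-fold lower by the brightest of its probe sets (difference -1.49, adjusted p = 0.0249), and the other, at -0.37, did not pass. It did not pass when any array except CPC 3 was left out (adjusted p between 0.0561 and 0.110). Without Ctl 3 the count of this list was 4 lower.

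Of 14 calcium-binding proteins and chaperones of the ER lumen, 0 fell and 0 rose (limma; 0 lower and 3 higher at an unadjusted p under 0.05, and 0 and 0 with no moderation), with a median difference of -0.14. The smallest p was that of Rcn3 (reticulocalbin 3), at 9.51 ± 0.42 in CPC and 8.36 ± 0.30 in Ctl (SD, n = 3 each; difference 1.15, SE 0.28, adjusted p = 0.0798). Of 5 genes for store-operated calcium entry, in which emptied stores open channels of the cell membrane, 0 fell and 0 rose (limma; 0 lower and 1 higher at an unadjusted p under 0.05, and 0 and 0 with no moderation), with a median of 0.10. Orai1, a pore subunit of these channels, came closest (difference 0.61, adjusted p = 0.199). The unadjusted counts of both lists stand beside 10.7% lower and 9.69% higher among all probe sets.

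**Figure D4:**
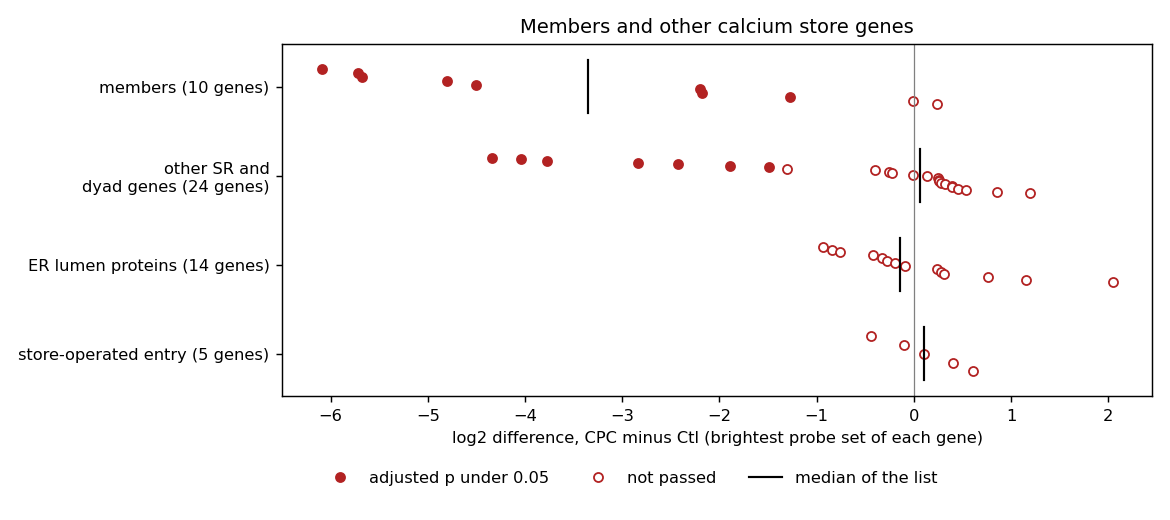
Log2 difference, CPC minus Ctl (x axis), of single genes read from their brightest probe set, for the 10 members and 3 further lists (rows); filled points passed, open points did not, and black bars are list medians. The members have a median of -3.35, the 24 other SR and dyad genes 0.064 with 7 filled points, and no gene of the other 2 lists passed.

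The genes outside the set whose levels over the 6 arrays were most like that of Ryr2 were Cd36 (a fatty acid transporter), Myom2 (a protein of the sarcomere M-band) and Ldb3 (a protein of the Z-disc). After centring each gene on its 6-array mean, they differed from Ryr2 by 0.183, 0.197 and 0.291 on average on the log2 scale. For Atp2a2, read from 1427250_at, they were Acot2 (a mitochondrial acyl-CoA thioesterase), Pbrm1 (a subunit of a chromatin remodelling complex) and Bbip1 (a subunit of the BBSome), at 0.128, 0.144 and 0.149.

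Some marker lists and a measure of RNA quality differed between the groups, and their part in the differences above was not tested. All 8 cardiomyocyte markers (Myh6, Actc1, Tnnt2, Tnni3, Myl2, Myl3, Actn2 and Ttn) were lower in CPC, and the log2 of their summed level was 10.7 to 11.1 in CPC and 16.8 to 16.9 in Ctl. Of 10 fibroblast markers 3 were higher in CPC (Col1a1, Col1a2 and Thy1) and 0 lower, with sums of 13.2 to 13.4 in CPC and 11.0 to 12.4 in Ctl. Only 1 of 2 probe sets of Col1a1 and 1 of 3 of Col1a2 passed. The median difference of the fibroblast list was 1.13, and 5 of its markers lay higher on every CPC array than on any Ctl array. Unadjusted (limma p under 0.05), 0 were lower and 5 higher. Lum (difference -0.38), Postn (-0.13) and Pdgfra (-0.047) averaged lower in CPC and did not pass. Of 6 markers of smooth muscle cells and pericytes 1 was lower in CPC (Rgs5), with overlapping sums of 12.0 to 13.2 in CPC and 11.4 to 13.2 in Ctl. At an unadjusted p under 0.05 (limma) 1 of this list was lower and 3 were higher, with a median difference of 0.51. Among all probe sets 10.7% were lower and 9.69% higher at that threshold. Tagln (difference 2.46), Acta2 (2.11) and Pdgfrb (0.83) lay higher on every CPC array than on any Ctl array, but did not pass. Every CPC array lay above for 21.9% of all genes. No marker of the lists for atrial cardiomyocytes (5), skeletal muscle (7), endothelial cells (7) or macrophages (6) passed. The summed level was 9.02 to 9.55 in CPC and 9.32 to 10.5 in Ctl for the atrial list. For skeletal muscle it was 10.63 to 11.22 in CPC and 10.27 to 10.58 in Ctl, without overlap. It was 10.2 to 10.5 in CPC and 10.1 to 11.7 in Ctl for endothelial cells, and 10.7 to 10.9 in CPC and 10.4 to 10.5 in Ctl for macrophages. Nppa and Lum were at or under background on all CPC arrays, and Cnn1 and Cd14 on all Ctl arrays. For Actb, the log2 signal of the 3′ control minus that of the 5′ control was 0.0022, 0.051 and 0.37 in CPC and -0.85, -0.41 and -0.54 in Ctl, without overlap. That of Gapdh was 2.09, 2.55 and 3.53 in CPC and 2.12, 1.77 and 2.21 in Ctl, with overlap.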

How the data were processed

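RNA of 3 CPC and 3 Ctl samples was amplified with a NuGEN kit and hybridised to Affymetrix whole-genome mouse arrays, 1 array per sample. The authors deposited log2 intensities made with RMA; Partek was also named per the labels, and versions are not given in the sources used here. A deposited table of the authors' own comparison holds a signed fold score and p-values with their step-up adjustment, which were not used; only its probe set annotation was. No detection calls or depths came with the values used here, and precision is limited by how many arrays there are.

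Of 45101 probe sets, 64 controls were left out. Exactly 1 gene was named by 38011, several by 1280 and none by 5746, and 3174 symbols were updated through the gene identifier. Groups came from the labels. Differences of CPC minus Ctl were fitted two-sided with lmFit and eBayes (limma 3.58.1 under R 4.3.3), adjusted by Benjamini-Hochberg over 45037 probe sets with a threshold of 0.05. The procedure was tested on simulated data in which both groups had the same spread for each probe set. Unequal group spreads were thus not covered by that test. Saturated probes were not marked. Ratios within arrays had exact permutation tests. Promoter sequences were those of RefSeq, GRCm38.p6; coordinates are given for them alone, since the files name no build.

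All members and every one of their probe sets were named. From each further list the genes that passed were named or, where none passed, the gene with the smallest p, and for Ryr2 and Atp2a2 the 3 genes most like them. The members, lists, tests and alternatives were chosen with earlier results of these data known. Alternatives covered scaling, a background floor, dim probe sets left out, variance models, weights, a replicate block, the probe set per gene, thresholds and leaving out each array.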

Additional observations from a re-analysis of the deposited data

How the results depend on the processing

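Leaving out 1 array kept the direction of all 23 member differences that passed. Of all 30 probe sets, 165 of 180 such values also kept their side of the threshold; under the other alternatives 272 of 294 did, 18 no longer passed and 4 newly passed, all 4 with array weights. The count of member probe sets lower in CPC (23) ran from 17 with no moderation to 26 with array weights, and from 19 to 22 without 1 array. Array weights gave 1 member probe set and 1 member gene higher (Sln). Member genes lower (8) numbered 5 with no moderation, 5 with a fold limit of 2 and 5 at an adjusted p under 0.01, and 6 to 8 without 1 array. The other SR and dyad genes lower (7) numbered 2, 4 and 4 under these settings, and 4 to 7 without 1 array. Higher ones (0) numbered 3 with array weights, 1 by the mean of probe sets (Hax1), and 0 to 1 without 1 array (Bin1 without CPC 2). Array weights also gave 2 lower and 5 higher ER lumen genes and 2 higher genes of store-operated entry. Without 1 array, 0 to 1 ER lumen genes were higher (Pdia6 without CPC 3). The cause was not tested. The call of Asph 1426015_s_at was also lost with quantile normalization repeated (adjusted p = 0.0526), median centring (0.0642), the background floor (0.0601), robust variance (0.0565) and no moderation (0.186). That of Jph2 1455404_at was lost with the floor (0.0503), an intensity trend (0.0826) and no moderation (0.154).

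Pln over Atp2a2 (0.040) and Ryr2 over Atp2a2 (0.41) turned direction with the Atp2a2 probe set second in brightness, chosen after seeing the data, and Sln over Atp2a2 (2.42) was 6.37 (4.93 by the mean of probe sets). All 54 ratio values without 1 array moved by less than the array spread. The replicate numbers did not pair the arrays (correlations of deviations -0.047, -0.013 and -0.11). With the replicate block 19 member probe sets and 6 member genes were lower, the calls lost being those of Atp2a2 1427250_at (adjusted p = 0.0784), Trdn 1426143_at (0.0630), Jph2 1455404_at (0.0905) and Asph 1426015_s_at (0.0985), and no sample correlated best with its own number. The authors' comparison table holds no values per array, so this alternative was not run.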
